A study of Mus musculus with 12 samples.

Results

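A set of 10 genes that make or break down prostaglandins and leukotrienes were followed across the wounds: the cyclooxygenases Ptgs1 and Ptgs2, the prostaglandin synthases Ptges, Ptgds and Hpgds, the prostaglandin-degrading enzyme Hpgd, and the leukotriene and lipoxygenase genes Alox5, Alox5ap, Lta4h and Alox15. They were chosen by name, as enzymes of eicosanoid metabolism, and found by gene symbol. All 10 of 10 were found among the 54232 genes in the count tables, and all 10 were among the 18618 genes with enough counts to test. The 12 libraries come from wounds in the back skin of male C57BLKS/J mice with the Lepr db/db genotype, a model of obesity and type 2 diabetes caused by loss of the leptin receptor. Mice were wounded on the back at 12 weeks of age with a full-thickness punch of 6 mm, and the tissue was taken on day 10. The sample labels give an age of 12.5 weeks for all 12, which is less than 12 weeks plus 10 days, and the sources used here do not say at which point it was recorded. Each wound had been covered with Tegaderm film alone (TD, 5 libraries), with a patch that imposes a strain of about 30% (Strain, 4 libraries), or with a patch that imposes none (No Strain, 3 libraries). Every group was diabetic, male and wounded, so no value here comes from a non-diabetic mouse or from intact skin.

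Eicosanoids are signalling lipids made from arachidonic acid, which phospholipases release from membranes. Cyclooxygenases convert it to prostaglandin H2, which terminal synthases turn into prostaglandin E2, prostaglandin D2, prostacyclin or thromboxane. The lipoxygenase Alox5, with its helper protein Alox5ap, converts it instead to leukotriene A4, the source of leukotriene B4 and of the cysteinyl leukotrienes. Other lipoxygenases convert it to hydroxy acids. In wounded skin these lipids are known for acting on blood flow, pain, the recruitment of neutrophils and the growth of keratinocytes.

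Totals ran from 20354677 to 25059371 counts per library, and 3 counts amounted to at most 0.147 CPM. CPM are counts scaled to a common library size, here with TMM factors (trimmed mean of M-values). Every wound is 1 library, and the labels do not say which wounds came from 1 mouse, so the p-values measure the spread between these libraries. The numbers in the sample titles are 1 to 6 in TD and 7 to 15 in the patch groups, so an effect of that order and an effect of the patch cannot be told apart. The markers of skin were present in every group: the 7 fibroblast markers summed to between 42471 and 73836 CPM, and the 6 basal keratinocyte markers to between 4405 and 10977 CPM. In bulk tissue, fewer cells of a type and less RNA per cell cannot be told apart.

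The 250 bases before the RefSeq start of the 4 genes that passed the test in at least 1 comparison are printed here, 5′ to 3′ on the gene's strand (build GRCm38.p6). Windows of 250 bases before and 50 bases after the start were at hand for 8 of the 10 genes. Capitals mark the letters of a GC box (GGGCGG) or of the palindrome bound by C/EBP factors (TTGCGCAA). The Ptgs2 window lies at chr1:150099781-150100030 on the plus strand, where the annotation also places exons of the antisense transcript Ptgs2os. The Ptgs1 window lies at chr2:36230176-36230425 on the plus strand. The Ptges window lies at chr2:30903298-30903547 on the minus strand, inside an intron of a longer, non-coding Ptges transcript. The Alox5 window lies at chr6:116461179-116461428 on the minus strand.
Ptgs2: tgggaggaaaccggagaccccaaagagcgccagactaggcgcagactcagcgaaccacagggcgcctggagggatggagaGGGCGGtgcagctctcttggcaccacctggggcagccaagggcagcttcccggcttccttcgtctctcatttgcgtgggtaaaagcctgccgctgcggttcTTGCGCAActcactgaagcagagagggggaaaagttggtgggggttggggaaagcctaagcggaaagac
Ptgs1: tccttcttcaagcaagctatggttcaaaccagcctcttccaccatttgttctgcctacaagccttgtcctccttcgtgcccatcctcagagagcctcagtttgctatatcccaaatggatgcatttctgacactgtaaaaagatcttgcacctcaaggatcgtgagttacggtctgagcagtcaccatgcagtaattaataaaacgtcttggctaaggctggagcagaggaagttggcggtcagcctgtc
Ptges: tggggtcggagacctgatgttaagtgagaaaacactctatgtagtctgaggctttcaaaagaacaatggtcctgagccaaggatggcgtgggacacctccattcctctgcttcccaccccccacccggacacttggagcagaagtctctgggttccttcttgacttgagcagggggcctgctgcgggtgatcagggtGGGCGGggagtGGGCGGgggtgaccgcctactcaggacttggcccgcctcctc
Alox5: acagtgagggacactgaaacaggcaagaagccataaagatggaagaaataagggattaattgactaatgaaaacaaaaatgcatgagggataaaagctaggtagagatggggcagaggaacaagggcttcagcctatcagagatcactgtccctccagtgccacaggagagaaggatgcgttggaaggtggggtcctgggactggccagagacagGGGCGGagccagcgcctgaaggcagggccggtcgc

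Both strands of the full windows were searched for 6 motifs. The C/EBP palindrome occurred in 0.183% of 32851 windows of the same 300 bases, and among the 8 genes only in that of Ptgs2, 69 bases before the start. The GC box occurred in 35.7% of all windows and in 4 of the 8: in Ptgs2 170 bases before the start, in Ptges 53 and 42 bases before it, in Alox5 35 bases before it and in Hpgd on the other strand. Just after its start, the Ptgs2 window also held the letters TGACG of a cyclic AMP response element, found in 20.8% of windows, overlapping an E-box (CACGTG, 7.15%). The TATA box letters TATAAA (13.6% of windows) were found in Hpgd only, and the NF-kappaB consensus (8.46%) in Ptgds only. None of the 6 motifs occurred in the Ptgs1 window. GC content was 61.6% in the printed bases of Ptgs2 and 48% in those of Ptgs1. These matches describe letters in a window and are not binding sites.

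The 2 cyclooxygenase genes moved in opposite directions. Ptgs1, the constitutive enzyme, was lower under both patches than under film alone. Ptgs2, the inducible enzyme, was higher under both. Under the No Strain patch the change was 1.83-fold for Ptgs1 and 5.22-fold for Ptgs2, and under the Strain patch 1.40-fold and 2.90-fold.

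Ptgs1 (ENSMUSG00000047250, chr2:36230426-36252272, plus strand) stood at 75.6, 68.2, 85.4, 63.0 and 71.8 CPM in TD 1 to 5. It stood at 45.2, 42.9, 61.1 and 59.4 CPM in Strain 1 to 4, and at 42.2, 36.9 and 40.1 CPM in No Strain 1 to 3. The 3 groups did not overlap at any point: every TD library was above every Strain library, and every Strain library above every No Strain library. The means were 72.8 ± 8.44 CPM (SD, n = 5), 52.2 ± 9.44 CPM (SD, n = 4) and 39.7 ± 2.68 CPM (SD, n = 3). Ptgs1 fell by 0.88 on the log2 scale under No Strain against TD (SE 0.13, adjusted p = 0.00323 in edgeR's quasi-likelihood test with Benjamini-Hochberg adjustment over all 18618 genes). It fell by 0.48 under Strain against TD (SE 0.12, edgeR adjusted p = 0.0269). The Strain call sat near the threshold: without TD 1, TD 3, Strain 1 or Strain 2 the edgeR adjusted p was 0.0509, 0.0567, 0.0652 or 0.0781. A stretch of 148 bases of the Ptgs1 exons also belongs to Gm43621 on the opposite strand, and whether the counting used strand is not given in the sources used here.

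Ptgs2 (ENSMUSG00000032487, chr1:150100031-150108227, plus strand) stood at 16.4, 9.33, 8.17, 5.01 and 4.91 CPM in TD 1 to 5. It stood at 17.3, 30.3, 12.8 and 41.5 CPM in Strain 1 to 4, and at 43.4, 55.5 and 38.6 CPM in No Strain 1 to 3. All 3 No Strain libraries were above all TD libraries, whereas Strain 3 lay below TD 1 and Strain 4 lay within the No Strain range. The means were 8.77 ± 4.69 CPM (SD, n = 5) in TD, 25.5 ± 13.0 CPM (SD, n = 4) in Strain and 45.8 ± 8.73 CPM (SD, n = 3) in No Strain. Ptgs2 rose by a log2 fold change of 2.38 under No Strain against TD (SE 0.42, edgeR adjusted p = 0.00551). Under Strain the log2 fold change was 1.54 (SE 0.40, edgeR adjusted p = 0.0311). That call was lost when any of 6 libraries was left out, with edgeR adjusted p = 0.0612, 0.0675, 0.0701 and 0.0562 without TD 2, 3, 4 and 5, and 0.0903 and 0.0751 without Strain 2 and 4.

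**Figure D1:**
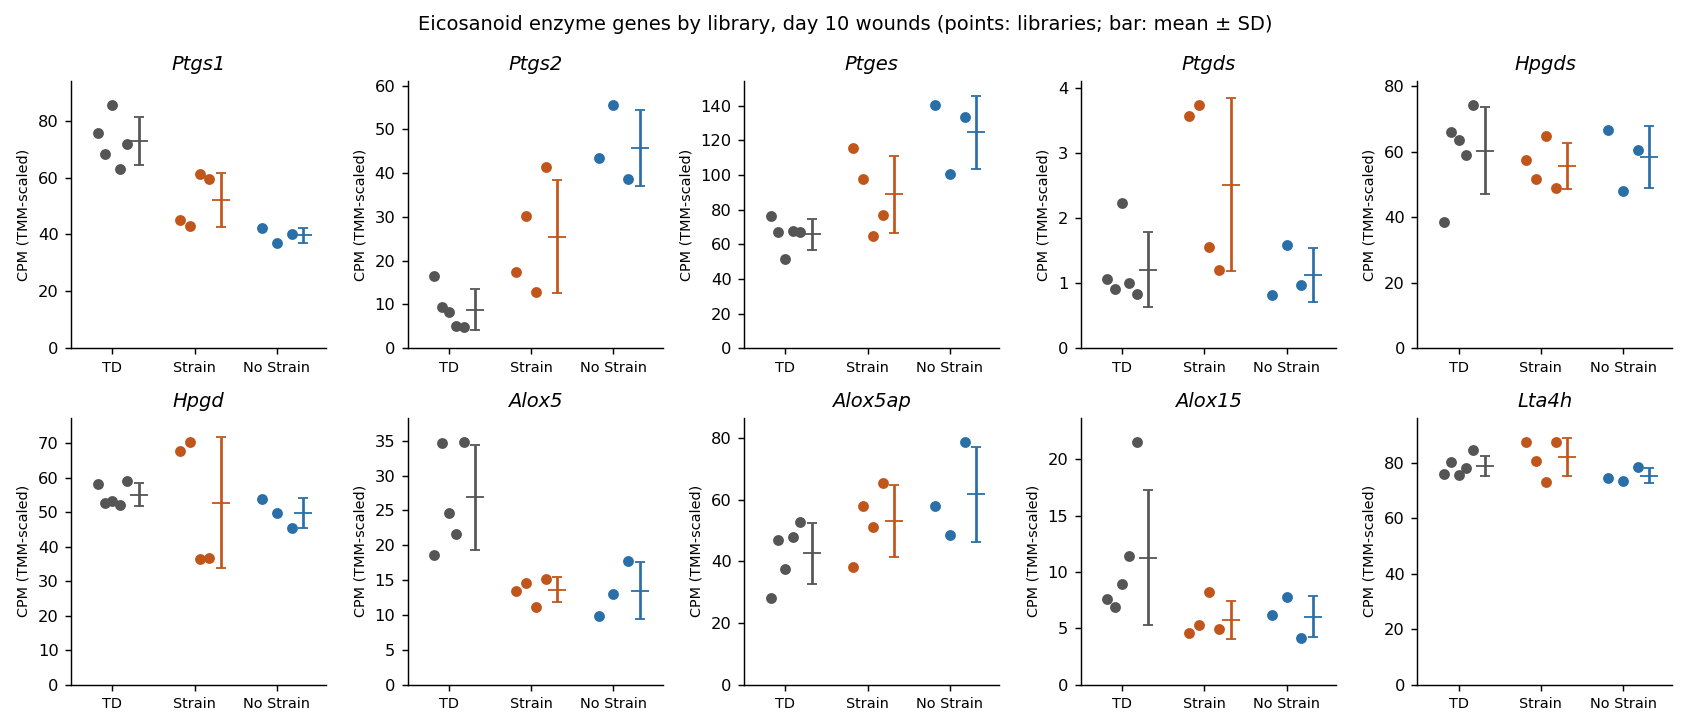
Level of each of the 10 genes in CPM (vertical axes, from 0) in the 12 libraries, with 1 point per library, grouped as TD, Strain and No Strain, and bars for the mean ± SD. The Ptgs1 points step down from TD to Strain to No Strain without overlap, the Ptgs2 points are highest in No Strain (38.6 to 55.5 CPM), and the Lta4h points stay between 73.1 and 87.4 CPM.

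The neutrophil markers moved with Ptgs2 in part. The 12 markers, led by S100a9, S100a8 and Lcn2, summed to 382 to 1626 CPM in TD, 812 to 8816 CPM in Strain and 1957 to 5321 CPM in No Strain, and no marker was at 0 throughout a group. Of the 12 markers, 11 passed as higher under Strain and 9 under No Strain against TD, where 6.2% and 9.35% of all genes did. The log2 fold changes of the 12 ran from 1.24 to 5.99 under Strain (median 2.04). Under No Strain they ran from 1.93 to 4.53 (median 2.64). TD 1 had both the highest neutrophil sum of the TD libraries and the highest Ptgs2. Strain 1 had the highest sum of all 12 libraries with Ptgs2 at 17.3 CPM, and Strain 4 had Ptgs2 at 41.5 CPM with a sum of 1320 CPM. For Strain against No Strain, the log2 fold changes of the 12 markers ran from -1.81 to 1.46, and 0 passed. Their median was -0.72, beside -0.85 for Ptgs2. The sum of the 6 markers of wound-activated keratinocytes was also higher in Strain 1 (10394 CPM) than in Strain 4 (3580 CPM). Whether the neutrophil sum stands for neutrophils alone was not tested. The part of neutrophil content in the Ptgs2 difference was not tested.

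Ptges, the inducible synthase that makes prostaglandin E2 from the product of the cyclooxygenases, rose under the No Strain patch. Its level (ENSMUSG00000050737, chr2:30889471-30929863, minus strand) was 76.1, 67.3, 51.5, 67.4 and 67.2 CPM in TD 1 to 5. It was 116, 97.6, 64.9 and 77.2 CPM in Strain 1 to 4, and 140, 101 and 133 CPM in No Strain 1 to 3. All No Strain libraries lay above all TD libraries, and Strain spanned the gap, with Strain 3 inside the TD range. The means were 65.9 ± 8.92 CPM (SD, n = 5), 88.9 ± 22.4 CPM (SD, n = 4) and 125 ± 21.1 CPM (SD, n = 3). The log2 fold change was 0.92 for No Strain against TD (SE 0.18, a 1.89-fold rise, edgeR adjusted p = 0.00794). For Strain against TD it was 0.43 (95% interval 0.06 to 0.80, edgeR adjusted p = 0.115), and without Strain 3 it was 0.54 with an edgeR adjusted p of 0.0457.

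The 2 prostaglandin D2 synthases did not pass the test in any comparison. Hpgds, the haematopoietic enzyme found in mast cells and other immune cells, stood at 38.5 to 74.1 CPM in TD, 48.9 to 64.6 CPM in Strain and 48.1 to 66.7 CPM in No Strain (ENSMUSG00000029919, chr6:65117293-65144908, minus strand). The TD range enclosed both patch ranges. Its log2 fold changes against TD were -0.12 for Strain (95% interval -0.49 to 0.26) and -0.05 for No Strain (95% interval -0.45 to 0.36). The 10 mast cell markers, led by Cma1, Mcpt4 and Tpsb2, summed to 274 to 546 CPM in TD, 306 to 470 CPM in Strain and 338 to 427 CPM in No Strain. As with Hpgds, TD 1 was the lowest of the 12 libraries in this sum. It was also the lowest in the sum of the macrophage and monocyte markers (2355 CPM). The part of mast cell content in the Hpgds values was not tested.

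Ptgds, the lipocalin-type enzyme, was the scarcest of the 10 genes, with 18 to 83 counts per library (ENSMUSG00000015090, chr2:25466709-25470046, minus strand). It stood at 1.07, 0.904, 2.23, 1.01 and 0.833 CPM in TD, 3.58, 3.74, 1.56 and 1.20 CPM in Strain, and 0.810, 1.59 and 0.976 CPM in No Strain. Strain 1 and Strain 2 were above all other libraries, and the remaining Strain libraries lay among the others. The log2 fold change of Strain against TD was 1.05 (95% interval 0.16 to 1.93, edgeR adjusted p = 0.109), and that of No Strain against TD was -0.10 (95% interval -1.12 to 0.91). The same 2 Strain libraries had the highest sums of the 5 melanocyte markers, 58.7 and 75.8 CPM, against 27.4 and 21.2 CPM in the other Strain libraries, 7.55 to 13.5 CPM in TD and 8.69 to 35.8 CPM in No Strain. Led by Dct, Pmel and Tyrp1, all 5 of these markers rose under Strain against TD, where 6.2% of all genes rose. Under No Strain 0 of the 5 passed, where 9.35% of all genes rose, and their log2 fold changes were 0.54 to 0.99. The part of these markers in the Ptgds values was not tested.

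Hpgd, the dehydrogenase that starts the breakdown of prostaglandin E2, showed no difference past the threshold (ENSMUSG00000031613, chr8:56294585-56321043, plus strand). In TD it was tightly grouped at 58.3, 52.7, 53.4, 52.2 and 59.2 CPM, and in No Strain it stood at 54.0, 49.9 and 45.3 CPM. The Strain libraries split around these values, with 67.9 and 70.4 CPM in Strain 1 and 2 and 36.4 and 36.7 CPM in Strain 3 and 4. Their SD of 18.9 CPM was larger than the 3.32 CPM of TD and the 4.33 CPM of No Strain, while the Strain mean of 52.8 CPM lay between the TD mean of 55.2 CPM and the No Strain mean of 49.8 CPM. The log2 fold change was -0.06 for Strain against TD (95% interval -0.48 to 0.36) and -0.15 for No Strain against TD (95% interval -0.61 to 0.31). The basal keratinocyte markers, led by Krt14, Krt5 and Krt15, summed to 10977, 8400, 7479 and 4491 CPM in Strain 1 to 4. Strain 1 and 2 were highest there too, while Strain 3 had a high sum with low Hpgd. The part of keratinocyte content in the Hpgd values was not tested.

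**Figure D2:**
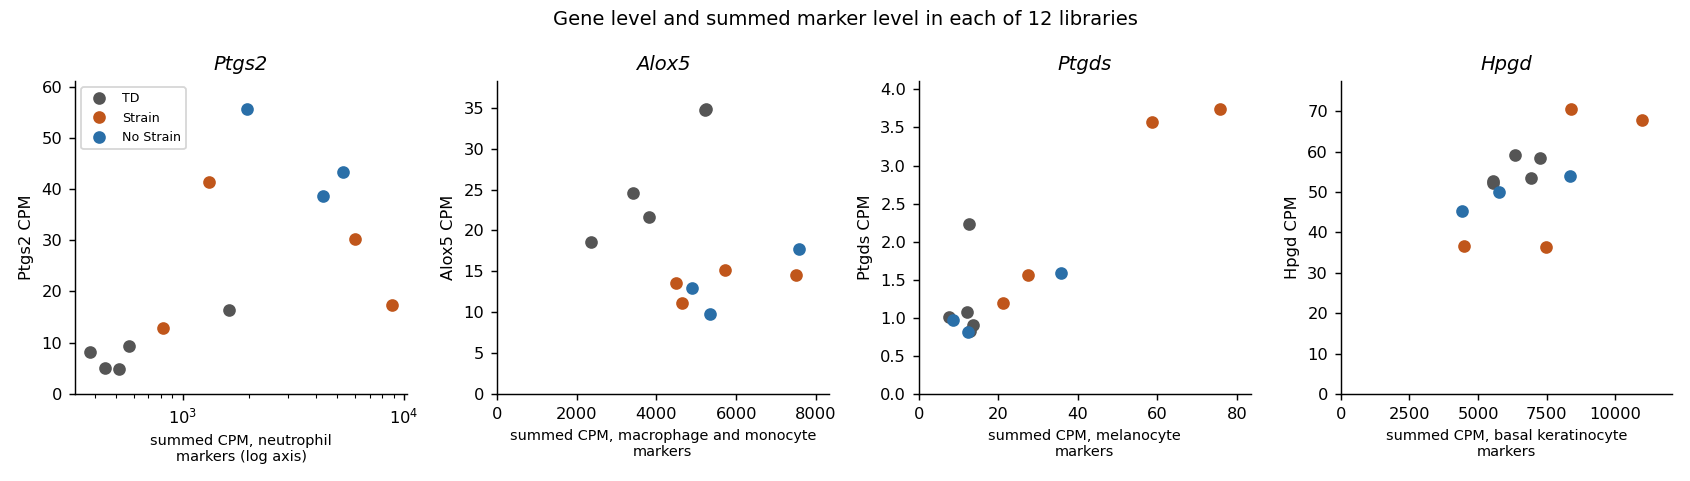
Level of Ptgs2, Alox5, Ptgds and Hpgd (vertical axes, CPM) against the summed CPM of neutrophil, macrophage and monocyte, melanocyte and basal keratinocyte markers (horizontal axes, the first on a log scale), with 1 point for each of the 12 libraries, coloured by group. Strain 1 and 2 are the pair at the top right of the Ptgds panel, and the patch libraries lie below all TD libraries in Alox5, at marker sums of 4497 to 7566 CPM.

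On the leukotriene side, Alox5 fell under both patches, while Alox5ap did not pass the test. Alox5 makes leukotriene A4, and Alox5ap encodes the membrane protein that presents arachidonic acid to it. Alox5 (ENSMUSG00000025701, chr6:116410077-116461178, minus strand) stood at 18.6, 34.7, 24.6, 21.6 and 34.8 CPM in TD 1 to 5. It stood at 13.5, 14.6, 11.1 and 15.2 CPM in Strain and at 9.81, 13.0 and 17.8 CPM in No Strain. Every patch library was below every TD library, and the patch groups overlapped each other. The means were 26.9 ± 7.51 CPM (SD, n = 5), 13.6 ± 1.79 CPM (SD, n = 4) and 13.5 ± 4.02 CPM (SD, n = 3). Alox5 fell by 0.98 on the log2 scale under Strain (SE 0.22, 1.98-fold lower, edgeR adjusted p = 0.0192) and by 0.99 under No Strain (SE 0.25, 1.99-fold lower, edgeR adjusted p = 0.0202). The No Strain call was lost without No Strain 1 (edgeR adjusted p = 0.0795) or No Strain 2 (0.0577).

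Alox5ap (ENSMUSG00000060063, chr5:149264767-149288153, plus strand) stood at 28.1, 46.8, 37.5, 47.9 and 52.8 CPM in TD, 38.1, 57.9, 51.1 and 65.5 CPM in Strain, and 58.0, 48.4 and 78.6 CPM in No Strain. The 3 ranges overlapped. The log2 fold change was 0.32 for Strain (95% interval -0.14 to 0.78, edgeR adjusted p = 0.338) and 0.53 for No Strain (95% interval 0.04 to 1.03, edgeR adjusted p = 0.122). A stretch of 189 bases of its exons is shared with Gm19719 on the opposite strand. The 12 macrophage and monocyte markers, led by Lyz2, Csf1r and C1qb, summed to 2355 to 5254 CPM in TD, 4497 to 7504 CPM in Strain and 4890 to 7566 CPM in No Strain. Of these 12, 3 rose and 0 fell under Strain, where 6.2% of all genes rose and 6.41% fell, and 4 rose and 0 fell under No Strain, where 9.35% rose and 8.4% fell. The log2 fold changes of the 12 ran from -0.85 to 1.58 under Strain and from -1.67 to 1.66 under No Strain. The median of the 12 was 0.41 under Strain and 0.64 under No Strain. Cd163, named after its values were seen, stood at 102 to 304 CPM in TD, 45.9 to 194 CPM in Strain and 38.0 to 90.3 CPM in No Strain. As 0 of the 12 fell past the threshold, Cd163 did not pass as lower in either comparison. The part of macrophage content in the Alox5 and Alox5ap values was not tested.

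Lta4h, whose product turns leukotriene A4 into the neutrophil attractant leukotriene B4, was the steadiest of the 10 genes (ENSMUSG00000015889, chr10:93453411-93484875, plus strand). It ranged from 75.5 to 84.5 CPM in TD, from 73.1 to 87.4 CPM in Strain and from 73.4 to 78.2 CPM in No Strain, a span of 1.20-fold over the 12 libraries. Its log2 fold change against TD was 0.06 for Strain (95% interval -0.08 to 0.20) and -0.07 for No Strain (95% interval -0.21 to 0.08).

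Alox15, a lipoxygenase that makes 12- and 15-hydroxy acids and precursors of lipoxins, was expressed at a low level (ENSMUSG00000018924, chr11:70344152-70352031, minus strand). It stood at 7.65, 6.86, 8.97, 11.4 and 21.5 CPM in TD, 4.57, 5.31, 8.25 and 4.98 CPM in Strain, and 6.17, 7.81 and 4.14 CPM in No Strain. TD 5 was the highest library, and the patch libraries overlapped the lower TD libraries. The log2 fold change was -0.96 for Strain against TD (95% interval -1.72 to -0.20), with an adjusted p of 0.0907 by edgeR and 0.0321 by DESeq2. For No Strain against TD it was -0.90 (95% interval -1.73 to -0.06, edgeR adjusted p = 0.124).

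**Figure D3:**
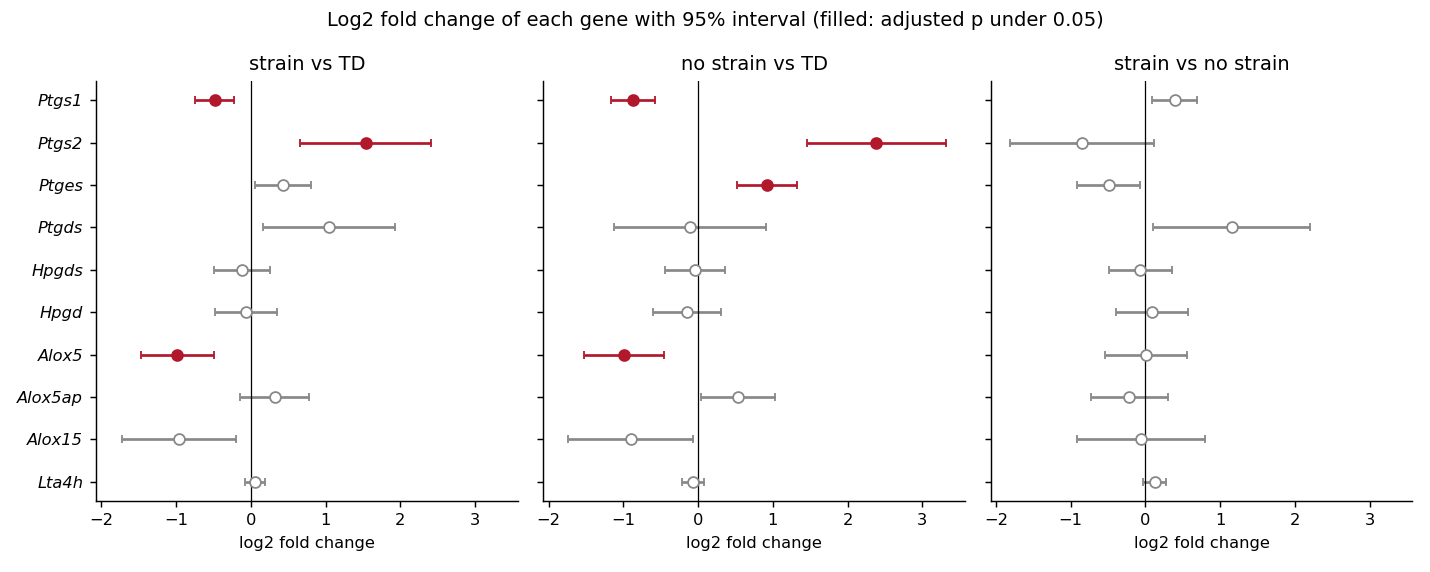
Log2 fold change of each of the 10 genes (horizontal axis) with its 95% interval in the 3 comparisons, with filled points for an edgeR adjusted p under 0.05 and open points for the rest. Ptgs1 and Alox5 lie left of 0 and Ptgs2 right of 0 for both patches against TD, Ptges is filled for No Strain against TD only, and no point is filled for Strain against No Strain.

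Counted over the set, 3 of the 10 genes passed the threshold for Strain against TD, 1 higher and 2 lower, where 12.6% of all 18618 genes passed (6.2% higher, 6.41% lower). For No Strain against TD, 4 of the 10 passed, 2 higher and 2 lower, where 17.8% of all genes passed (9.35% higher, 8.4% lower). At an unadjusted p under 0.05 there were 6 of the 10 in each of the 2 comparisons, beside 29.5% of all genes for Strain and 33.5% for No Strain. The median log2 fold change of the 10 was 0.00 for Strain and -0.09 for No Strain, beside 0.02 and 0.00 over all genes tested, since the set moved both ways. Both comparisons use the same TD libraries. With the letter L or R of the sample titles as a covariate, whose meaning is not given, 0 of the 10 passed for Strain and 4 for No Strain. Of the 10 genes, 2 had ranges that did not overlap between Strain and TD (14.6% of all genes) and 4 between No Strain and TD (26.7%).

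The comparison of the patches with each other asks what strain adds to the presence of a patch. Here 0 of the 10 genes passed in edgeR, as did 0 of all 18618 genes (0%), and in DESeq2 the count among the 10 was also 0. At an unadjusted p under 0.05 there were 3 of the 10, Ptgs1, Ptges and Ptgds, beside 5.61% of all genes. Ptgs1 was higher under Strain by a log2 fold change of 0.39 (95% interval 0.09 to 0.70), and was the only one of the 10 whose ranges did not overlap, as in 5.62% of all genes. Ptges was lower by -0.49 (95% interval -0.91 to -0.07) and Ptgds higher by 1.15 (95% interval 0.11 to 2.20). For Ptgs2 the log2 fold change was -0.85 (95% interval -1.81 to 0.12). The edgeR adjusted p of these 4 was 0.872 each. Alox5 had a log2 fold change of 0.01 (95% interval -0.54 to 0.56) and Lta4h one of 0.12 (95% interval -0.03 to 0.28).

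Ratios of 2 genes within 1 library do not depend on library scaling. The log2 ratio of Ptgs2 to Ptgs1 counts had a TD mean of -3.19 (SD 0.67, n = 5), a Strain mean of -1.16 (SD 0.83, n = 4) and a No Strain mean of 0.19 (SD 0.35, n = 3). In TD there were between 0.0687 and 0.217 Ptgs2 counts per Ptgs1 count, in Strain between 0.210 and 0.706, and in No Strain between 0.963 and 1.51. All No Strain libraries were above all Strain libraries, and Strain 3 was just below the highest TD library. The log2 ratio of Ptges to Hpgd, a synthase over a degrading enzyme of prostaglandin E2, had means of 0.25 (SD 0.19, n = 5), 0.79 (SD 0.25, n = 4) and 1.31 (SD 0.28, n = 3) in the same order. All Strain libraries (0.47 to 1.07) lay above all TD libraries (-0.05 to 0.38), and Strain overlapped No Strain (1.01 to 1.56). The log2 ratio of Ptgds to Hpgds was -5.68 in TD, -4.61 in Strain and -5.72 in No Strain on average, and that of Alox5 to Alox15 was 1.34, 1.26 and 1.17, with overlapping ranges in both. These ratios were described and not tested.

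**Figure D4:**
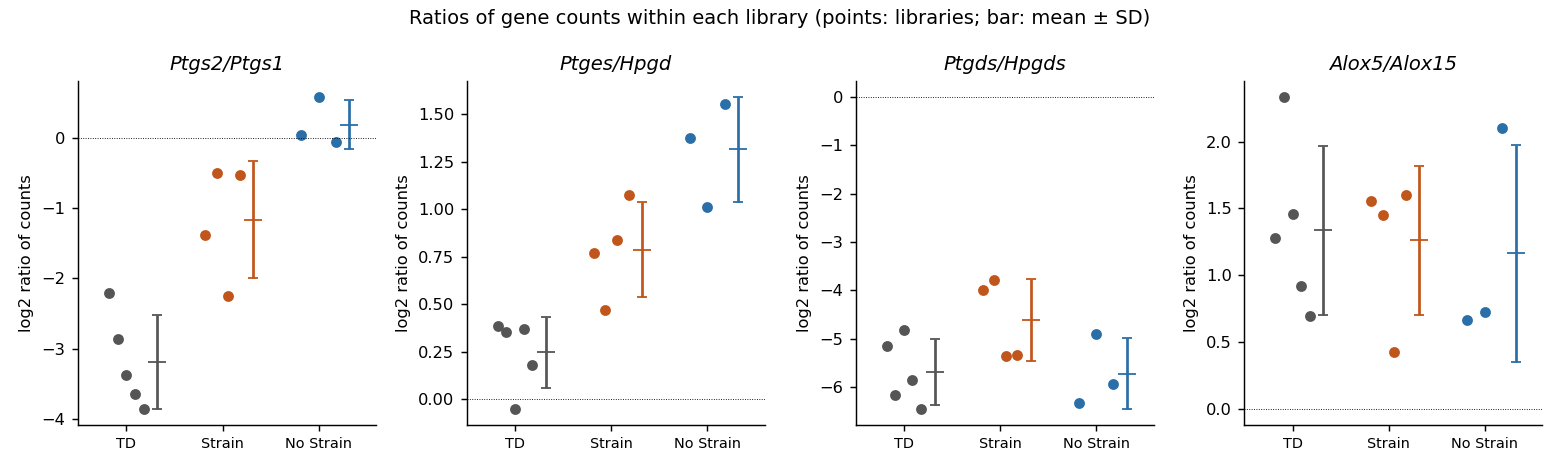
Log2 ratio of counts of 2 genes within each library (vertical axes) for Ptgs2/Ptgs1, Ptges/Hpgd, Ptgds/Hpgds and Alox5/Alox15, with 1 point per library and bars for mean ± SD; the dotted line marks equal counts. Ptgs2/Ptgs1 moves from -3.19 in TD to 0.19 in No Strain, while the groups overlap in the Ptgds/Hpgds and Alox5/Alox15 panels.

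To compare genes with each other, levels were divided by exon length. Averaged over the 12 libraries, Alox5ap led with 35.8 CPM per kb, followed by Hpgd (31.5), Ptges (22.5), Ptgs1 (14.8), Lta4h (12.9), Hpgds (9.07), Ptgs2 (5.15), Alox5 (4.65), Alox15 (3.32) and Ptgds (0.985 CPM per kb). The order differed between groups: in TD Hpgd came first with a mean of 32.8 CPM per kb, ahead of Alox5ap with 30.0, and in No Strain Alox5ap came first with 43.4, ahead of Ptges with 31.7 and Hpgd with 29.6 CPM per kb. Alox5ap and Hpgd overlapped widely across libraries, at 19.8 to 55.4 and 21.6 to 41.8 CPM per kb, as did Ptgs1 (9.49 to 22.0) and Lta4h (12.0 to 14.3). Ptgs2 varied most, with an 11.3-fold span, and its rank among the 10 was 9 in TD, 7 in Strain and 6 in No Strain. Ptgs1 moved from rank 3 in TD to rank 5 under both patches. Per length of the longest transcript, Lta4h came to 24.5 CPM per kb and rank 3, Ptgs1 to 20.1 and Hpgds to 15.0 CPM per kb, so the order in the middle depends on the length used.

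For each gene, the 2 most similar profiles were sought among 15667 genes by Pearson's r of log2 CPM over the 12 libraries, which share the group differences. Ptgs2 was most like Cxcl2, a neutrophil chemokine (r = 0.94), and Il1a, an interleukin 1 cytokine (r = 0.92). For deviations from the group means it was most like Amn1 and Arid4b (both r = 0.88). Alox5ap was most like Sh3bgrl and Apbb1ip on both measures (r = 0.97 each). Hpgds was most like Abhd12 and Adcy3 on both (r = 0.95 for levels, 0.98 and 0.96 for deviations). For Alox5, the closest levels were those of Pepd (r = 0.96) and Gpd1l (0.94), and the closest deviations those of the myeloid receptor gene Cd33 and of F13a1, a coagulation factor subunit made by macrophages (0.95 each). For Hpgd, Tmprss11b appeared on both measures (r = 0.93 and 0.96), with Pitx1 (0.92) for levels and Arc (0.97) for deviations. Ptgs1 was nearest to Slc6a2 (r = 0.96) and Pcmtd2 (0.95), and for deviations to Mettl7b (0.97) and Jmjd8 (0.95). Ptges was nearest to Etf1 and Ppp4r1 (r = 0.96 each), and for deviations to Srp9 (0.97) and Cfap69 (0.95). For Ptgds, Lin7c (r = 0.93) and Zfand1 (0.89) came first, and Psmc3ip (0.92) and Inpp4b (0.91) for deviations. For Lta4h these were Acy1 (0.92) and Arhgap21 (0.90), and Snx4 (0.96) and Mr1 (0.94). For levels Alox15 had the lowest r to its nearest genes, Gm33699 (0.86) and Sept3 (0.84), and for deviations it was nearest to Cyp2s1 (0.91) and Adora2a (0.87). Among the 10 genes themselves, Ptgs1 and Ptges ran opposite to each other (r = -0.89 for levels, -0.60 for deviations), while for Ptgs1 and Ptgs2 r was -0.77 for levels and 0.08 for deviations. With 12 libraries and this many genes, high values of r arise readily, and these are descriptions.

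The rest of the pathway was read from 54 further genes in 7 lists by role, of which 53 were matched and 52 tested. For Strain against TD, 13 of the 52 passed (7 higher, 6 lower; 25%, beside 12.6% of all genes), and for No Strain against TD 12 of 52 (6 higher, 6 lower; 23.1%, beside 17.8%). The median log2 fold change of the 52 was 0.01 and 0.03. In the comparison of Strain with No Strain, 0 of 52 passed in edgeR, with 4 at an unadjusted p under 0.05. The 2 with the smallest p there were Mgst2, a glutathione transferase (log2 fold change 0.62, SE 0.23), and Cyp4f18 (-0.70, SE 0.28), with an edgeR adjusted p of 0.872 each.

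Upstream of the cyclooxygenases, Pla2g4a, the cytosolic phospholipase that releases arachidonic acid, stood at 34.5 ± 1.88 CPM (SD, n = 5) in TD, 37.0 ± 5.04 CPM (SD, n = 4) in Strain and 37.1 ± 2.79 CPM (SD, n = 3) in No Strain. Its log2 fold change was 0.10 for each patch (95% intervals -0.09 to 0.29 and -0.10 to 0.31). Of the 12 phospholipases tested, 1 rose and 2 fell under Strain, and 1 fell under No Strain. Over all genes, 12.6% passed for Strain and 17.8% for No Strain. Pla2g12a, a secreted phospholipase, was the one that fell under both: it stood at 26.0 to 37.7 CPM in TD, above all Strain libraries (24.9 CPM or less) and all No Strain libraries (22.7 CPM or less). Its log2 fold changes were -0.47 (edgeR adjusted p = 0.0281) and -0.52 (0.0219). The Strain call of Pla2g12a was lost without TD 1, TD 3, Strain 1 or Strain 2. It was also lost in voom and with the title letter or the muscle markers as a covariate. The No Strain call was lost with the muscle markers and without No Strain 1 or No Strain 3. Over 22 alternative fits, the log2 fold changes were -0.54 to -0.09 and -0.59 to -0.31.

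Downstream of prostaglandin H2, 0 of the 8 other prostanoid synthases passed for Strain and 1 fell for No Strain. The shares of all genes that passed were 12.6% and 17.8%. The prostacyclin synthase Ptgis stood at 13.2 to 45.6 CPM in TD, 10.6 to 39.4 CPM in Strain and 6.91 to 17.3 CPM in No Strain, with log2 fold changes of -0.32 (95% interval -1.27 to 0.63) and -1.26 (95% interval -2.36 to -0.17, edgeR adjusted p = 0.103). The thromboxane synthase Tbxas1 had log2 fold changes of -0.05 (95% interval -0.67 to 0.56) and 0.14 (95% interval -0.52 to 0.81). The synthase that fell under No Strain was Akr1c18, named after its values were seen (log2 fold change -2.10, edgeR adjusted p = 0.0483) with TD at 21.3 to 82.3 CPM and No Strain at 5.85 to 13.1 CPM. It passed in 10 of 22 alternative fits. The call was lost without TD 1, 2, 3 or 5, Strain 2 or 4, or any No Strain library. It was also lost in voom, without a filter and with the title letter as a covariate. The log2 fold changes ran from -3.25 to -1.77 over the 22.

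The 4 receptors for prostaglandin E2 differed from each other. Ptger2 stood at 3.33 to 4.70 CPM in TD, 4.47 to 8.01 CPM in Strain and 7.85 to 9.99 CPM in No Strain. It rose by a log2 fold change of 1.03 under No Strain (SE 0.18, edgeR adjusted p = 0.00503), a call kept in all 22 alternative fits. Under Strain the log2 fold change was 0.60 (SE 0.17, edgeR adjusted p = 0.0385), a call kept in 7 of 22 fits. It was lost without any 1 of the TD libraries, Strain 2, 3 or 4, or No Strain 1 or 2. It was also lost in voom, without a filter and in a fit of 2 groups alone. The title letter or the muscle markers as a covariate removed it too. The log2 fold changes were 0.49 to 0.81 over the 22. Ptger3 fell under both patches. Its mean was 14.7 ± 3.41 CPM (SD, n = 5) under film, against 5.90 ± 1.79 CPM (SD, n = 4) with the Strain patch and 5.75 ± 3.16 CPM (SD, n = 3) with the No Strain patch. Its log2 fold changes were -1.32 and -1.35 (edgeR adjusted p = 0.0305 and 0.0317), and each call was kept in 13 of 22 fits. Both were lost without a filter and with the title letter or the muscle markers as a covariate. Both were also lost without TD 1, 2, 3 or 4. Leaving out Strain 2 or 4 lost the first, and No Strain 1 or 3 the second. The log2 fold changes of Ptger3 were -1.49 to -1.16 and -1.77 to -0.98 over the 22. The 7 adipocyte markers, led by Lpl, Fabp4 and Lep, summed to 2266 to 4187 CPM in TD, 1489 to 2277 CPM in Strain and 1362 to 1840 CPM in No Strain. Of these 7, 6 fell under Strain (median log2 fold change of the list -1.50) and 7 under No Strain (-2.52), where 6.41% and 8.4% of all genes fell. Their part in the Ptger3 values, and in those of the other genes that fell, was not tested. Ptger4 had log2 fold changes of -0.35 under each patch (edgeR adjusted p = 0.0559 and 0.0644), and Ptger1 had 0.06 and 0.02. Of all 9 prostanoid receptors, 2 rose and 1 fell under Strain, and 1 rose and 1 fell under No Strain. The shares of all genes that passed were 12.6% and 17.8%.

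Slco2a1, the transporter that takes prostaglandins up into cells for breakdown, fell under both patches. It stood at 61.4 to 78.2 CPM in TD, 35.1 to 49.1 CPM in Strain and 33.8 to 49.4 CPM in No Strain, with no overlap between TD and either patch. The log2 fold changes were -0.81 (SE 0.13, edgeR adjusted p = 0.00572) and -0.83 (SE 0.14, edgeR adjusted p = 0.00446). Cyp4f18, a cytochrome that inactivates leukotriene B4 in neutrophils, rose: it stood at 5.49 to 8.18 CPM in TD, 11.1, 17.4, 13.4 and 26.1 CPM in Strain, and 18.4, 34.8 and 29.9 CPM in No Strain. Its log2 fold changes were 1.40 (SE 0.25, edgeR adjusted p = 0.00943) and 2.10 (SE 0.27, edgeR adjusted p = 0.00220). Among the patch libraries, the neutrophil sum, led by S100a9, S100a8 and Lcn2, was highest in Strain 1 (8816 CPM) and lowest in Strain 3 (812 CPM). For Strain against No Strain, the median log2 fold change of the neutrophil markers was -0.72, beside -0.70 for Cyp4f18. The part of neutrophil content in the Cyp4f18 values was not tested. Of the 8 degrading enzymes and transporters, 1 rose and 2 fell under Strain, and 2 rose and 2 fell under No Strain. The shares of all genes that passed were 12.6% and 17.8%.

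Past leukotriene A4, Ltc4s, the synthase of cysteinyl leukotrienes, fell under both patches, as Alox5 did. It stood at 6.66 to 12.0 CPM in TD, 2.43 to 4.74 CPM in Strain and 1.84 to 4.09 CPM in No Strain, with every patch library below every TD library. The log2 fold changes were -1.37 (SE 0.28, edgeR adjusted p = 0.0138) and -1.43 (SE 0.31, edgeR adjusted p = 0.0121). The Strain call of Ltc4s was lost with the title letter and with the muscle markers as a covariate, at -1.61 to -1.23 over 22 alternative fits, and the No Strain call was kept in all 22. Ggt5, which trims leukotriene C4 to leukotriene D4, rose under both patches. Its mean was 24.0 ± 4.31 CPM (SD, n = 5) under film, against 43.4 ± 9.39 CPM (SD, n = 4) with the Strain patch and 38.7 ± 4.21 CPM (SD, n = 3) with the No Strain patch. Its log2 fold changes were 0.86 (edgeR adjusted p = 0.0107) and 0.69 (0.0218), at 0.22 to 0.98 and 0.37 to 0.78 over 22 alternative fits. Both calls of Ggt5 were lost with the title letter and with the muscle markers as a covariate, and the No Strain call also without No Strain 1 or No Strain 2. These were 1 gene higher and 1 lower of the 6 cysteinyl leukotriene enzymes tested, in each comparison. Over all genes, 12.6% passed for Strain and 17.8% for No Strain.

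Of the 4 leukotriene receptors, only Ltb4r1, the high-affinity receptor for leukotriene B4 on neutrophils, passed. It stood at 9.78 to 13.1 CPM in TD, 14.1 to 19.3 CPM in Strain and 18.2 to 22.6 CPM in No Strain, again without overlap between TD and the patches. It rose by log2 fold changes of 0.66 (SE 0.12, edgeR adjusted p = 0.00965) and 0.91 (SE 0.13, edgeR adjusted p = 0.00253).

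Among the 5 other lipoxygenases, 1 passed for each patch against TD, where 12.6% (Strain) and 17.8% (No Strain) of all genes did. This was Alox8, which was outside the naming rule and chosen after its values were seen. It stood at 31.4, 5.22, 3.51, 6.78 and 2.32 CPM in TD, 431, 136, 14.8 and 39.3 CPM in Strain, and 348, 76.0 and 129 CPM in No Strain. Strain 3 fell below TD 1, and the values within a group ranged widely. The log2 fold changes were 3.98 (SE 1.04, edgeR adjusted p = 0.0316) and 4.22 (SE 1.08, edgeR adjusted p = 0.0230), kept in 12 and 16 of 22 alternative fits. The first was lost without TD 2, 3, 4 or 5 or Strain 1 or 2. Leaving out TD 2, 3 or 4 or No Strain 1 lost the second. Both were lost without a filter and with the muscle markers as a covariate, the first also in voom and with the title letter. The log2 fold changes of Alox8 were 2.06 to 5.12 and 3.38 to 5.36 over the 22. The 6 wound-activated keratinocyte markers, led by Krt16, Krt6b and Krt17, summed to 2617 to 3935 CPM in TD, 3580 to 10394 CPM in Strain and 3377 to 10964 CPM in No Strain, and their part in this was not tested.

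Exons of Ltc4s, Cyp4f18, Slco2a1, Ptger1, Ptger2, Ptger4, Ptgis and Tbxas1 overlap genes on the opposite strand, whose reads cannot be told apart without strand. With the mean level of the skeletal muscle markers as a covariate, 0 of the 10 genes and 0 of the 52 passed for Strain, while for No Strain Ptgs1 and Alox5 passed and 6 of the 52 did. The 16 muscle markers summed to 7078 to 17452 CPM in TD, 3359 to 6382 CPM in Strain and 4913 to 10476 CPM in No Strain, so Strain and TD did not overlap in this sum, and its effect and that of the patch cannot be told apart there.

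**Figure D5:**
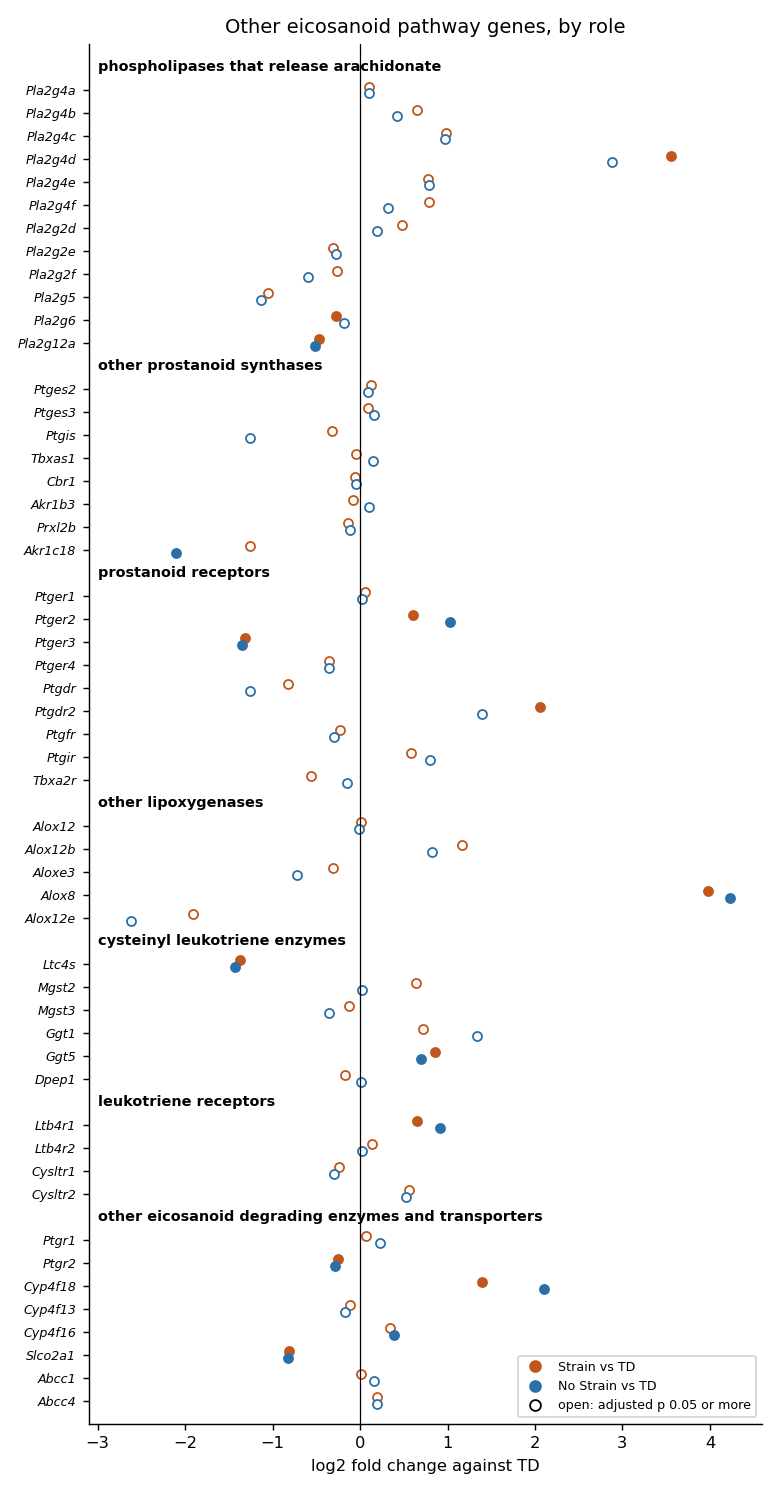
Log2 fold change (horizontal axis) of the 52 other eicosanoid pathway genes tested, ordered by role, for each patch against TD, with filled points for an edgeR adjusted p under 0.05. Slco2a1, Ltc4s and Ptger3 lie left of 0 and Cyp4f18, Ltb4r1 and Ggt5 right of 0 for both patches.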

How the data were processed

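The authors deposited whole-number counts of reads per gene for each of the 12 libraries, in 54232 Ensembl gene IDs. Poly(A) RNA libraries were made with the NEBNext Ultra kit, per the labels' protocols. The submitters' processing notes name bcl2fastq 2.17, FastQC, cutadapt, STAR, featureCounts, DESeq2 and the build GRCm38. The annotation release, the strand setting and the handling of multi-mapping reads are not given in the sources used here.

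Symbols and coordinates came from GENCODE M21 (GRCm38), which held 54165 of the IDs, and promoter windows from RefSeq (GRCm38.p6). Of the 54 other pathway genes, 1 symbol shared by 2 IDs was left out. Genes were kept by edgeR's filterByExpr (minimum count 10, minimum total 15). The 3 comparisons were fitted in edgeR 4.0.16 (R 4.3.3) over all 12 libraries with TMM scaling and the robust quasi-likelihood test, with Benjamini-Hochberg adjustment over all 18618 genes and a threshold of 0.05. The SE is the log2 fold change divided by the square root of F, and intervals cover 95%. Ratios within a library used counts plus 0.5, and levels per kb used the union of exons. Likeness used log2 CPM with a prior count of 2 and genes with a mean of at least 1 CPM. The script was tested on simulated data. All 19 pairs of libraries within a group differed by more than sampling noise (chi-square per degree of freedom 8.69 to 67.1), so none repeats the counts of another. This does not show whether wounds came from 1 mouse. Alternatives used DESeq2 1.42.0, limma 3.58.1 with voom, other scalings and filters, covariates and leaving out each library.

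All 10 genes were named in the text. Pathway genes were named if, in a comparison, they ranked among the first 3 in each direction by p past the threshold, or among the first 2 where 0 passed, or if they were partners in role of the 10 (Ltc4s, Tbxas1, Ptgis, Pla2g4a, Slco2a1 and the 4 Ptger receptors). From a marker list, the 3 most abundant genes were named. The members, the lists and these rules were chosen with earlier results of these data known.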

Additional observations from a re-analysis of the deposited data

Results flagged for a closer look

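Across 28 sets of values tested (the levels of the 10 genes and 4 ratios in TD and in Strain), 2 held a library that stood apart from the rest of its group by Dixon's criterion, where chance gives about 1.4. In TD, the log2 CPM of Ptgds was highest in TD 3 at 1.21, with the next library at 0.21. The gap was 0.752 of the range, above the 95% critical value for 5 libraries. Ptgds is the scarcest of the 10 genes, and this library had 56 counts of it. In Strain, the log2 ratio of Alox5 to Alox15 was lowest in Strain 3 at 0.43, with the next library at 1.45. The gap was 0.872 of the range, above that for 4. Strain 3 had the lowest Alox5 (11.1 CPM) and the highest Alox15 (8.25 CPM) of the 4 Strain libraries. The causes were not tested.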

How the results depend on the processing

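No paired analysis was possible because the labels give no replicate numbers shared between groups. The 10 genes gave 3 calls for Strain and 4 for No Strain against TD, within 1.5 times, under other scalings and filters, DESeq2, voom and a fit of 2 groups alone. For Strain against TD, the count was 0 with the title letter and 0 with the muscle markers as a covariate, and 1 to 4 without single libraries (1 without TD 3 or Strain 2). For No Strain against TD it was 2 with the muscle markers and 3 to 4 without single libraries. For the 52 pathway genes, the 13 calls for Strain became 7 without a filter, 4 with the letter, 0 with the muscle markers and 6 to 15 without single libraries (6, 7, 8 and 8 without TD 3, TD 4, Strain 1 and Strain 2). The 12 for No Strain became 19 in DESeq2, 6 with the muscle markers and 6 to 14 without single libraries (6 and 7 without No Strain 1 and 3). Over all genes, the 2349 calls for Strain became 1527 without a filter, 798 with the letter, 1 with the muscle markers and 882 to 2458 without single libraries (1426, 1301, 1274 and 882 without TD 2, 3 and 4 and Strain 2). The 3305 for No Strain became 2145, 897 and 1505 to 3415 (1668 and 1505 without No Strain 1 and 3), and library totals alone turned the split of 1741 higher and 1564 lower to 1257 and 2046. Between the patches, the 0 calls became 33 in DESeq2.

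Single genes lost calls as follows. For Strain against TD with the letter as covariate, the adjusted p was 0.0943 for Ptgs1, 0.104 for Ptgs2 and 0.0615 for Alox5, and without a filter that of Ptgs2 was 0.0911. For No Strain with the muscle markers, Ptgs2 had 0.0633 and Ptges 0.0735. Ptgs1 under No Strain passed in all 22. Log2 fold changes that turned sign were all uncalled. Between the patches these were Hpgds (-0.19 to 0.027 without single libraries), Hpgd (-0.022 in voom, -0.16 with muscle, -0.094 to 0.23 without single libraries), Alox5 (-0.18 with muscle, -0.19 to 0.26 without single libraries) and Alox15 (-0.29 to 0.17 without single libraries). For Strain against TD, Hpgds gave 0.16 with the letter, Hpgd -0.25 to 0.077 without single libraries, and Lta4h -0.10 with muscle. For No Strain against TD, Ptgds gave 0.072 in voom and -0.44 to 0.24 without single libraries, and Hpgds 0.19 with the letter and -0.17 to 0.073 without single libraries. At a mean of at least 5 CPM Ptgds was not tested. The causes were not tested. With 3 to 5 libraries a group, intervals for Ptgs2, Ptgds and Alox15 span more than a log2 unit in each comparison. So do those of Alox5 for No Strain against TD (-1.53 to -0.45) and between the patches (-0.54 to 0.56). Between the patches, that of Alox5ap does as well (-0.73 to 0.30).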
